A study of Caenorhabditis elegans with 2 samples.

Results

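The mutator and nuclear RNAi genes described here are 10 named genes of Caenorhabditis elegans small RNA silencing: mut-2, mut-7, mut-14, mut-15, mut-16, nrde-1, nrde-2, nrde-3, nrde-4 and tofu-1. They are 10 of the 19973 protein-coding genes on the nuclear chromosomes, and all 10 symbols were found in the annotation. CEH-100 is a homeobox protein, and its positions on the genome were measured by ChIP-seq, in which DNA bound to a precipitated protein is sequenced and called as peaks. Per the labels, the strain RW12233 carries the allele st12233, a CRISPR insertion at the endogenous ceh-100 gene that adds TY1, EGFP and 3xFLAG tags, and the precipitation used an antibody against GFP. All samples are whole young adults, 64 hours old, raised from starved first-stage larvae obtained by bleaching, in 1 group of 2 biological replicates. No conditions can be compared within 1 group, and because whole animals were used, the tissue in which the tagged protein lay at a gene is not known.

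In the nematode, small interfering RNAs are copied from target transcripts by RNA-dependent RNA polymerases in perinuclear granules called Mutator foci, where the mutator proteins act. Part of these small RNAs is carried into the nucleus by Argonaute proteins, and the nuclear RNAi defective (NRDE) factors then repress elongation and place silencing marks on the chromatin of the target gene. Piwi-interacting RNAs (piRNAs) are a separate class of germline small RNAs that can start such silencing. The question for these genes is whether CEH-100 peaks lie at their annotated starts, how strong those peaks are, and what else lies under them.

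A member was given a peak if any of its annotated starts, the 5′ ends of its transcripts, had a summit no farther than 1000 bp away. The main list was the authors' conservative set, which keeps peaks by their irreproducible discovery rate (IDR), a measure of how well peaks repeat. It holds 1685 nuclear peaks. The signal of a peak is the authors' own enrichment value, which has no unit and was not scaled between lists. It is used to rank peaks within a list, and the ratio between the replicates' values at a peak is read only against the same ratio at other peaks. The lists carry no counts of reads, and the depth behind a signal is unknown.

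Of the 10 members, 5 had a conservative peak: mut-2, mut-15, nrde-2, nrde-4 and tofu-1. Under the same rule, 1454 of the 19973 protein-coding genes, or 7.28%, had a peak. The members were chosen with earlier results of these data known, so their share is a description and not evidence of an excess. The 5 genes carried 7 peaks, since nrde-2 and tofu-1 each had 2. Over all protein-coding genes with a peak, 199 of 1454 (13.7%) had more than 1. All 7 summits lay upstream of the member's start, as did 78.1% of the 1678 pairs of gene and summit over all protein-coding genes. The members mut-7, mut-14, mut-16, nrde-1 and nrde-3 had no conservative peak.

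The sequence under these peaks was read from the RefSeq genome of the same build, WBcel235, on the plus strand, in windows reaching 50 bp to either side of the summit. The first pair is from mut-15 on chromosome V (15002269 to 15002369) and nrde-4 on chromosome IV (7654535 to 7654635). The longest run of bases shared by these 2 windows, 11 bases, is in capitals. The pair was not picked by a search over all member windows, and the mut-2 window was not compared.
mut-15: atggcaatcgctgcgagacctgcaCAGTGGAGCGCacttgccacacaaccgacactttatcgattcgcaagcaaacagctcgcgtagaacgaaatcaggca
nrde-4: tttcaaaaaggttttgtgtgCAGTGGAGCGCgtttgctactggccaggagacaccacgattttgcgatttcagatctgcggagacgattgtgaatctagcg
The run began 26 bp before the summit at mut-15 and 30 bp before it at nrde-4, on the same strand. It was present, on either strand, in 13 of the 1685 summit windows (0.772%), counting the 2 windows it was taken from. Of 3370 windows centred 300 bp to either side of the summits, 3 held it (0.089%). Because the run was picked from summit windows, these shares are descriptions and not evidence of an excess at summits. The nuclear genome holds the run 186 times, 107 of them inside protein-coding genes, 77 outside any gene and 2 in noncoding genes alone.

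The other windows come from the 2 peaks of nrde-2 on chromosome II (10247720 to 10247820 and 10248503 to 10248603) and the 2 peaks of tofu-1 on chromosome V (9980818 to 9980918 and 9981018 to 9981118). They are shown because the windows of each gene hold reverse complements of each other. Capitals mark bases in runs of at least 20 whose exact reverse complement lies within 1000 bp of the summit.
nrde-2, summit 132 bp upstream: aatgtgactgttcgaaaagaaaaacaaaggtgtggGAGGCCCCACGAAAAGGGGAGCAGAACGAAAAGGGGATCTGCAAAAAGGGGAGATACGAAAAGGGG
nrde-2, summit 915 bp upstream: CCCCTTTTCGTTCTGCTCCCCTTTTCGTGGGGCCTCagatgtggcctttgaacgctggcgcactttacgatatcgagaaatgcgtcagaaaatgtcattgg
tofu-1, summit 279 bp upstream: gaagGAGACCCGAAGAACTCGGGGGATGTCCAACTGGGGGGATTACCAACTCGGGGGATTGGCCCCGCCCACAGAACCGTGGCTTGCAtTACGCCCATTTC
tofu-1, summit 79 bp upstream: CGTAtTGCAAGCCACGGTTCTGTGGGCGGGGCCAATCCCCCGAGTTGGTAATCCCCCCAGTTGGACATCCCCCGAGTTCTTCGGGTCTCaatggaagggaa
Such inverted repeats covered 66 and 36 bases at the nrde-2 summits, in the order shown, and 96 and 88 bases at the tofu-1 summits. The longest run shared by the windows of a pair was 36 bases at nrde-2 and 84 bases at tofu-1. Among all 1685 summit windows, 122 (7.24%) held an inverted repeat by this rule, against 137 of 3370 flanking windows (4.07%).

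Both genes' windows also hold sequence found elsewhere in the genome. Of the 71 overlapping 31-mers in a window, 39 and 9 at the nrde-2 summits occurred more than once, and 58 and 63 at the tofu-1 summits, in the order of the sequences above. The most frequent 31-mer had 61 copies at nrde-2, and 76 and 78 copies at tofu-1. The windows of mut-2, mut-15 and nrde-4 held no repeated 31-mer. Over all nuclear conservative summits, 466 (27.7%) had at least 1 repeated 31-mer. Each nrde-2 window shared a 31-mer with 23 other conservative summit windows, of which 1 was the gene's other peak. The tofu-1 windows shared one with 21 and 22 others, again counting the partner peak. How reads from such copies were placed is not given in the sources used here, so the share of the signal at nrde-2 and tofu-1 that belongs to each copy is uncertain.

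Among the mutator genes with a peak, mut-15 encodes a protein needed for Mutator focus function (WBGene00011323, chromosome V, 15002543 to 15005067, plus strand). Its peak, from 15002150 to 15002627, had signals of 745 in replicate 1 and 714 in replicate 2, and 1463 in the conservative set, where it ranked 40 of 1685 by signal. The summit was intergenic, 224 bp upstream of the mut-15 start. It lay nearer to fib-1, the fibrillarin gene on the opposite strand, whose start was 96 bp away. The 2 starts are 320 bp apart and point away from each other, so this peak cannot be given to either gene from its position.

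The other mutator gene with a peak was mut-2, also called rde-3, which encodes a nucleotidyltransferase that adds tails to the RNAs that RNAi targets (WBGene00003499, chromosome I, 6356614 to 6358411, minus strand). Its peak, from 6358432 to 6358747, had signals of 64.6 in replicate 1 and 63.5 in replicate 2. Both were below the medians of their thresholded lists, 84.2 in replicate 1 and 82.1 in replicate 2. In the conservative set its signal of 121 ranked 982, under the median of 134. The summit was 179 bp upstream of mut-2 and 5 bp inside the 5′ UTR of K04F10.3, a gene on the opposite strand whose nearest start is 174 bp from that of mut-2. The mut-2 peak was thus the weakest of the 7, and its summit differed by 50 bp between the replicates.

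Among the nuclear RNAi genes, nrde-2 encodes a conserved nuclear factor that acts with the nuclear Argonaute on target transcripts (WBGene00011333, chromosome II, 10242596 to 10247638, minus strand). Its nearer peak, from 10247643 to 10247895 with the summit 132 bp upstream, had signals of 171 in replicate 1 and 294 in replicate 2. In the conservative set it had 464 and ranked 173. No other protein-coding start lay within 1000 bp of that summit. The farther peak, from 10248370 to 10248734, had 1691 in replicate 1 and 1958 in replicate 2, and with 3643 it ranked 9 of all nuclear conservative peaks. Its summit was 915 bp from the nrde-2 start but 438 bp from that of atad-3, a mitochondrial ATPase gene on the opposite strand. It is the member peak closest to the 1000 bp limit, and the strongest peak counted for any member is therefore nearer to another gene.

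The summit of the nearer nrde-2 peak lay inside an arm of 84 bases of the inverted repeat, 117 to 200 bp upstream of the start. The summit of the farther peak lay just outside the matching arm, whose outer run of 52 bases ended 900 bp upstream. A second run of that arm, of 25 bases, lay 802 to 826 bp upstream. The 2 summits were 783 bp apart.

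The nrde-4 gene encodes a factor needed for NRDE-1 to associate with chromatin (WBGene00001584, chromosome IV, 7646320 to 7654262, minus strand). Its peak, from 7654440 to 7654724, had signals of 472 in replicate 1 and 536 in replicate 2. The conservative signal was 1013, at rank 76. The intergenic summit was 323 bp upstream of the nrde-4 start, and the replicates' summits differed by 1 bp. Of the 5 members with a peak, nrde-4 was the only gene whose peaks no other gene shared, protein-coding or not. Over all protein-coding genes with a peak, 874 of 1454 (60.1%) shared one with another protein-coding gene.

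The piRNA gene tofu-1 encodes a subunit of the nuclease that cuts piRNA precursors near their 5′ ends (WBGene00007785, chromosome V, 9981147 to 9982766, plus strand). Its stronger peak, from 9980690 to 9981012, had 577 in replicate 1 and 605 in replicate 2, and with 1237 it ranked 50 in the conservative set. That summit was 279 bp upstream of tofu-1 and 66 bp upstream of ruvb-1, an ATPase gene on the opposite strand, with 345 bp between the starts. The weaker peak, from 9980971 to 9981172 with the summit 79 bp upstream, had a conservative signal of 127 at rank 909. Neither replicate's ranked list had a summit within 150 bp of it. The nearest overlapping peak in each replicate was that of the stronger summit, 206 bp away in replicate 1 and 186 bp away in replicate 2, with overlaps of 37 and 25 bp.

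The weaker tofu-1 peak was also absent from the authors' other thresholded set, although its conservative IDR score was 1000, the highest possible. The 2 tofu-1 summits lay in facing runs of 84 bases, at 242 to 325 bp upstream for the stronger peak and at 41 to 124 bp for the weaker. Beyond a single unmatched base, each arm went on with a run of 36 bases. Of the 1685 conservative peaks, 166 were missing from the other set, 76 (4.51%) had no summit within 150 bp in either replicate's ranked list, and 190 (11.3%) had the same nearest overlapping peak in both replicates as another conservative peak. The tofu-1 peak at 79 bp belongs to all 3 groups. Whether it is a separate binding site was not tested.

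**Figure D1:**
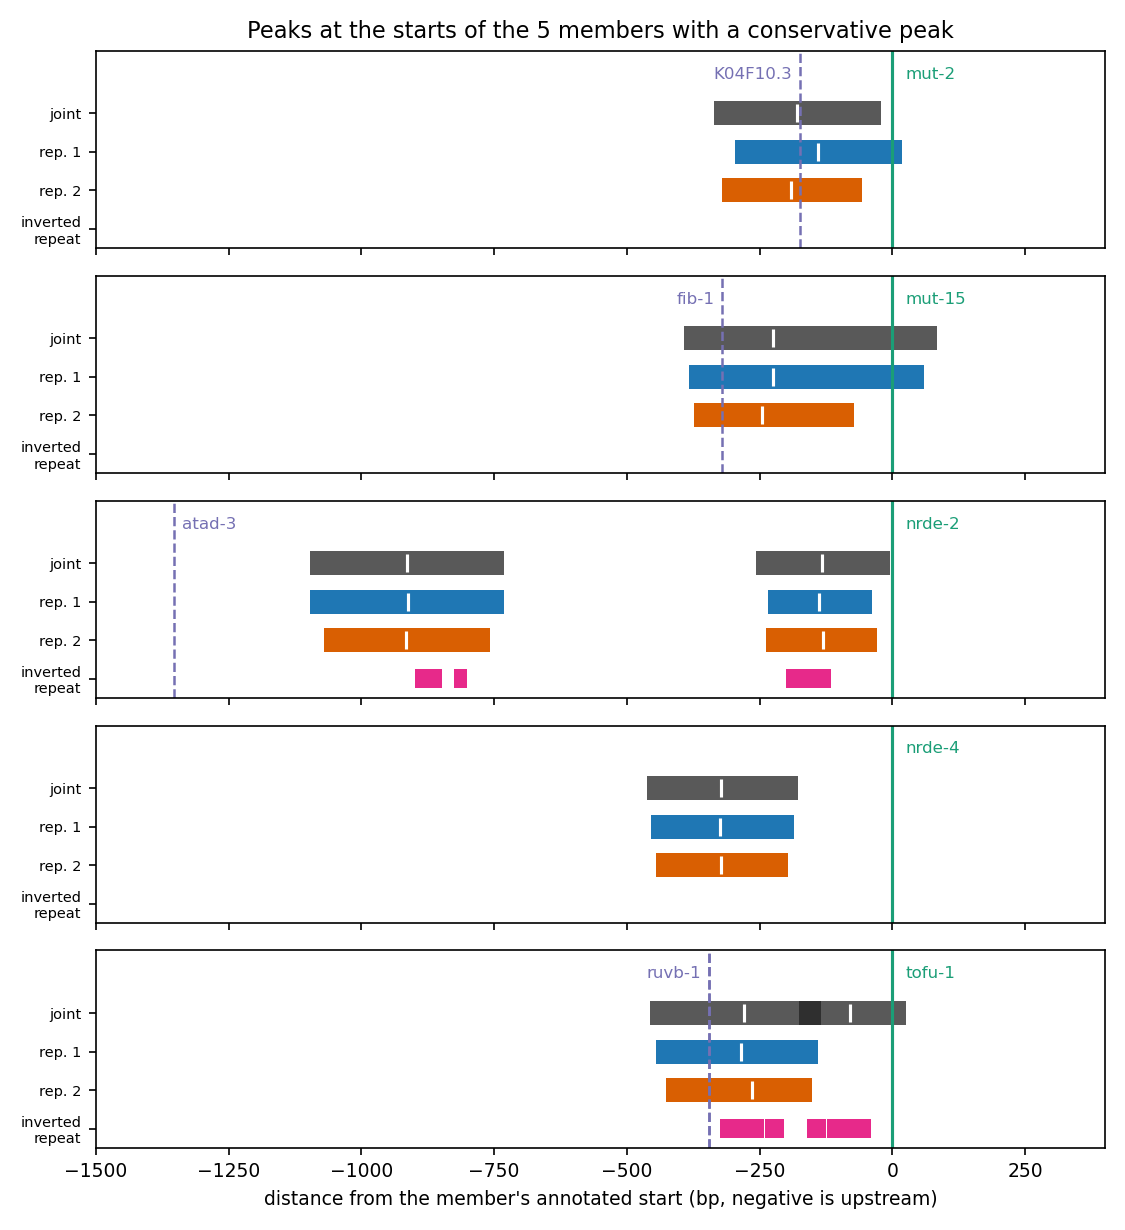
Intervals of the conservative (joint) peaks and of the matching peaks of replicates 1 and 2, with white ticks at the summits, by distance in bp from each member's start (green line); dashed lines are starts of genes that share a peak and pink bars are inverted repeat runs of at least 20 bases. All 7 summits are upstream, and at nrde-2 and tofu-1 the 2 joint peaks lie over or beside facing repeat arms, while tofu-1 has a single peak in each replicate.

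The replicates differed little at most of these peaks. The signal of replicate 1 over that of replicate 2 was 1.02 at mut-2, 1.04 at mut-15, 0.881 at nrde-4, 0.954 at the stronger tofu-1 peak and 0.864 at the farther nrde-2 peak. Over 1670 nuclear conservative peaks with a match in both ranked lists, the median ratio was 0.979, and the central 90% of peaks ran from 0.621 to 1.497. The nearer nrde-2 peak, at 0.583, was below that range. With 2 replicates there is no test of these ratios. Apart from mut-2, the replicates' summits at the matched peaks differed by 1 to 21 bp, where the median over all peaks was 18 bp.

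**Figure D2:**
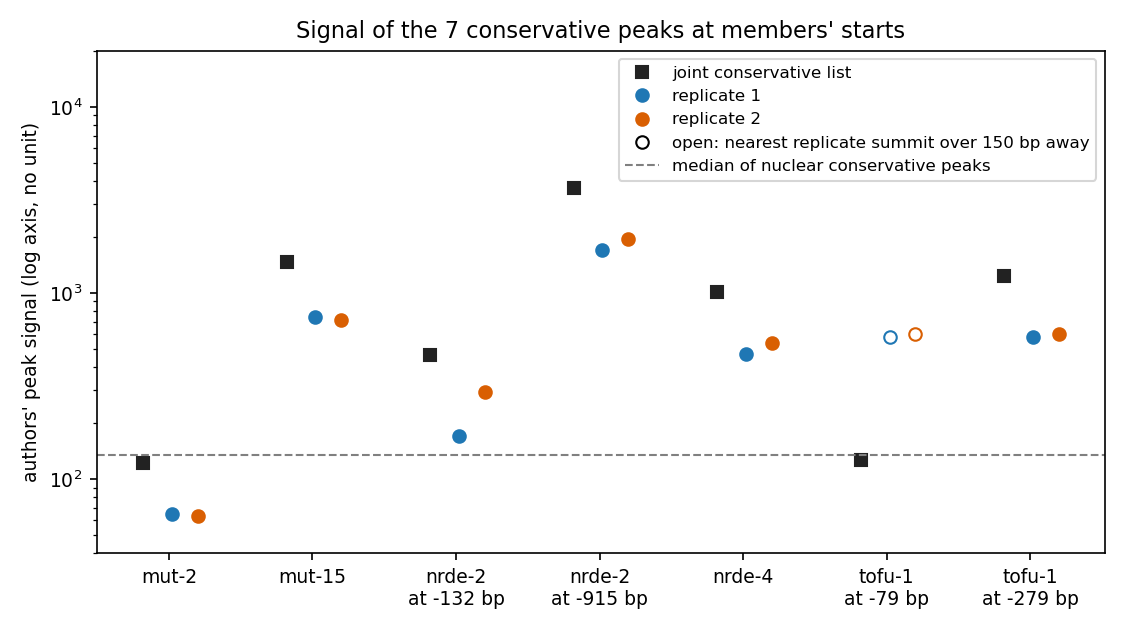
Signal of the 7 peaks (log axis, no unit) in the conservative set (squares) and in replicates 1 and 2 (circles); open circles mark a replicate summit over 150 bp from the joint summit. Of the 7 joint values, 5 lie above the median of 134 for nuclear conservative peaks, and the mut-2 peak and the weaker tofu-1 peak lie below it.

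Of the 5 members without a conservative peak, 2 had a summit within 1000 bp in the joint ranked list, which has no threshold. In that list 34.5% of all protein-coding genes had one, counting genes with a conservative peak, and the median signal of nuclear peaks was 39.5. The exonuclease gene mut-7 (WBGene00003504, chromosome III, 9539031 to 9542380) had a summit within 1000 bp only in the ranked list of replicate 1, where its signal was 21.6 at an IDR of 0.885. The scaffold gene of Mutator foci, mut-16 (WBGene00003508, chromosome I, 10080159 to 10085765), had a joint ranked peak 484 bp upstream with a signal of 58.6, at a global IDR of 0.459. In the authors' other joint ranked list, the strongest mut-16 peak had the same offset and signal at an IDR of 0.355. The strongest signal within 1000 bp of mut-16 was 21.99 in replicate 1, 484 bp upstream at an IDR of 0.885. In replicate 2 it was 28.85, 519 bp upstream at an IDR of 0.857. For nrde-1, which associates with target transcripts and chromatin (WBGene00007577, chromosome III, 3713463 to 3718750), the joint ranked list had a summit 300 bp downstream where the signal was 28.2 at an IDR of 0.798. Replicate 1 had a summit 448 bp upstream of nrde-1 with a signal of 19.54, while replicate 2 and the authors' other joint ranked list had none there.

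The helicase gene mut-14 (WBGene00003507, chromosome V, 5658713 to 5660704) had no summit in the joint ranked list or in either replicate's list, but 4 in the authors' other joint ranked list, the strongest with a signal of 46.1 at an IDR of 0.800. The nuclear Argonaute gene nrde-3 (WBGene00019862, chromosome X, 372235 to 376900) had no summit in any list. The nearest conservative summits to these 5 genes were 3770 bp from mut-7, 4705 bp from nrde-1, 6800 bp from mut-14, 20620 bp from nrde-3 and 26144 bp from mut-16. None therefore lay just outside the 1000 bp limit.

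The count of members with a peak changed with few of the rules. The same 5 members had a peak within 500 bp, where 5.56% of all protein-coding genes did, within 2000 bp (9.97%), in the authors' other thresholded set (8.05%), at a global IDR of at most 0.001 (4.98%), in replicate 1 alone (5.44%), in replicate 2 alone (6.48%) and when the peak interval replaced the summit (7.7%). They also did when a thresholded summit had to lie within 150 bp in both replicates (4.54%). Within 200 bp, 3 members had a peak, mut-2, nrde-2 and tofu-1, against 2.93% of all genes. For tofu-1 this was the weaker peak, with no replicate summit within 150 bp, and for nrde-2 the nearer one. When only the gene of the nearest start was counted per peak, nrde-2, nrde-4 and tofu-1 remained, against 5.25%. There too, tofu-1 rested on its weaker peak, since the stronger is nearer to ruvb-1. When peaks with a repeated 31-mer were left out, mut-2, mut-15 and nrde-4 remained, against 6.2%. The joint ranked list without a threshold gave 7 members, with mut-16 and nrde-1 added, but 34.5% of all genes. Of the members, only nrde-4 had a peak that was free of repeated 31-mers and nearest, among protein-coding starts, to its own. The share of all protein-coding genes that meet both rules together was not counted, so this is a description of the members only.

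**Figure D3:**
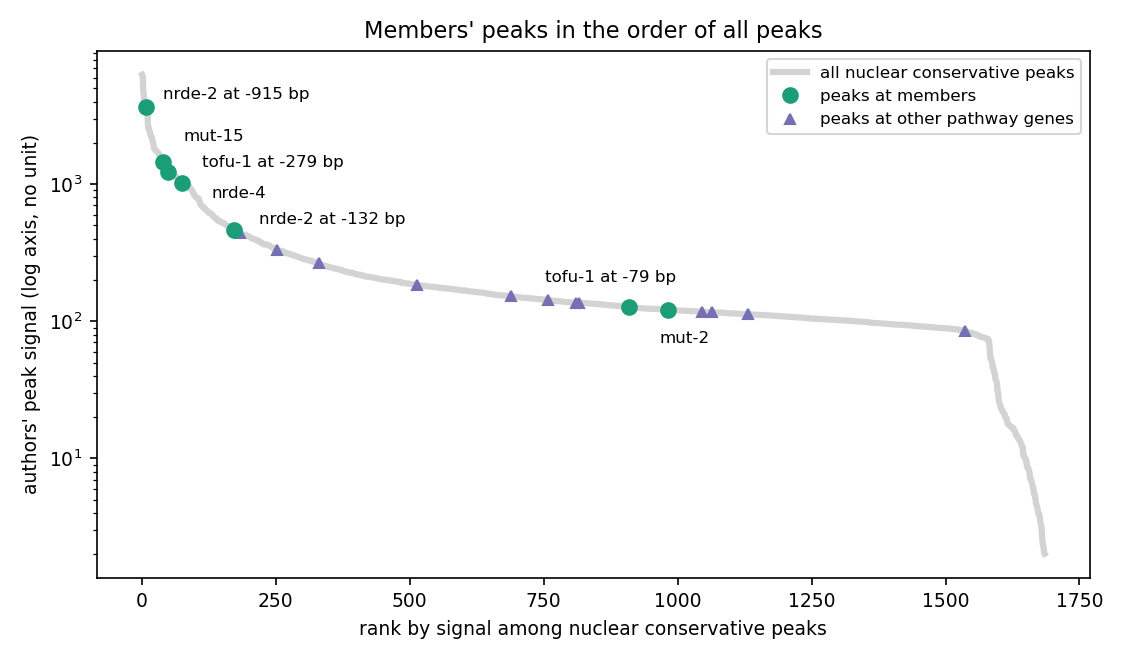
Signal (log axis, no unit) against rank for the 1685 nuclear conservative peaks (grey), with the 7 peaks at members (green circles) and the peaks at 12 other small RNA pathway genes (violet triangles). Members hold ranks 9, 40, 50, 76, 173, 909 and 982, and the highest of the other pathway genes, lin-61, holds 184.

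The homeodomain core sequence TAATTA, which is its own reverse complement, was in none of the 7 summit windows, and in 30 of all 1685 (1.78%) against 203 of 3370 flanking windows (6.02%). The shorter TAAT, on either strand, was in the 2 tofu-1 windows only, against 39.5% of all summit windows and 64.6% of flanking windows. Of all 6-mers, merged with their reverse complements, the 5 with the largest difference between summit and flanking windows were chosen after the data were seen, and several of them overlap each other. ACGCGC was in 14.1% of summit windows and 1.31% of flanking windows, and GAGCGC in 14.1% and 1.96%. CGCGCC was in 12% of summit windows and 1.36% of flanking windows, AGCGCG in 11.9% and 1.57%, and AACGCG in 12.6% and 2.55%. Among members, GAGCGC was in the windows of mut-15 and nrde-4, as part of the shared run printed above. The nrde-4 window held 4 of the 5, all but CGCGCC, and these 4 overlap in a single stretch across the end of the shared run. No window of mut-2, nrde-2 or tofu-1 held any of the 5. At least 1 was thus in 2 of the 7 member windows (28.6%), and in 35.6% of all summit windows. These matches describe letters in the windows and do not show what the protein binds.

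Other genes of the small RNA pathways had peaks at a lower share than the members, which were chosen with earlier results known. These 4 lists were written by role, and 79 of their 83 genes were found as protein-coding genes. Of the 79, 12 had a conservative peak (15.2%, against 7.28% of all protein-coding genes), with signals from 85.2 to 440. Their median was 140, where that of all genes with a peak was 156. By comparison, the strongest peak of each of the 5 members with one had a median signal of 1237. With each peak counted only for the gene of the nearest start, the median was 464 over 3 members. It was 140 over 8 other pathway genes and 148 over all 1049 such genes. The 3 member values were 1013 at nrde-4, 464 at the nearer nrde-2 peak, which holds repeated 31-mers, and 127 at the weaker tofu-1 peak. Of the 12 pathway genes with a peak, 9 lie on chromosome I, which holds 27 of the 79. The lists, like the members, were chosen with earlier results known, so these differences are descriptions and no test of an excess was made.

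Among 30 other siRNA and RNAi genes, 4 had a peak. The RNA-dependent RNA polymerase gene ego-1 had signals of 99.05 in replicate 1 and 89.8 in replicate 2, and 184 in the conservative set, with the summit 407 bp upstream and no other start within 1000 bp. At rde-2, whose protein acts with MUT-7, the summit was 931 bp upstream, with a signal of 137, and only 93 bp from the prefoldin gene pfd-6. The Tudor-domain gene ekl-1 had 117 and rde-10 had 116, and both peaks also lay within 1000 bp of another start, prpf-4 for ekl-1 and rnp-6 for rde-10. At rde-2 and ekl-1 the peak passed the threshold in replicate 2 only.

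Of 14 other nuclear RNAi and silencing genes, 3 had a peak. The chromatin repressor gene lin-61 had 202 in replicate 1 and 232 in replicate 2, and 440 in the conservative set, 440 bp upstream and 219 bp from the start of the kinase gene bub-1. The heritable RNAi gene hrde-4 had 152 and 172 in replicates 1 and 2, with the summit 626 bp downstream of its start and 70 bases of its window in an inverted repeat. The histone methyltransferase gene set-25 had 85.0 in replicate 1 and 53.0 in replicate 2, and passed the threshold in replicate 1 only.

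Among 19 other piRNA pathway genes, pid-4, pid-5 and pid-3 had conservative signals of 152, 143 and 112. All 71 31-mers of the pid-4 window were repeated elsewhere in the genome. The windows of hrde-4, set-25 and wago-4 held 34, 19 and 8 repeated 31-mers, and those of the remaining pathway genes with a peak held none. The pid-3 peak, 145 bp upstream of a gene of the complex that binds piRNA precursors, passed the threshold in neither replicate alone. Of 16 other Argonaute genes, alg-5, a germline microRNA Argonaute, had 264.5 with the summit 822 bp upstream and 152 bp from the histone gene his-68. The other was wago-4, an Argonaute of RNAi inheritance, with 85.2 at rank 1536. Like pid-3, it passed the threshold in neither replicate. All 5 members with a peak kept one that had a thresholded summit within 150 bp in both replicates, as did 7 of the 12 pathway genes and 906 of the 1454 protein-coding genes with a peak.

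**Figure D4:**
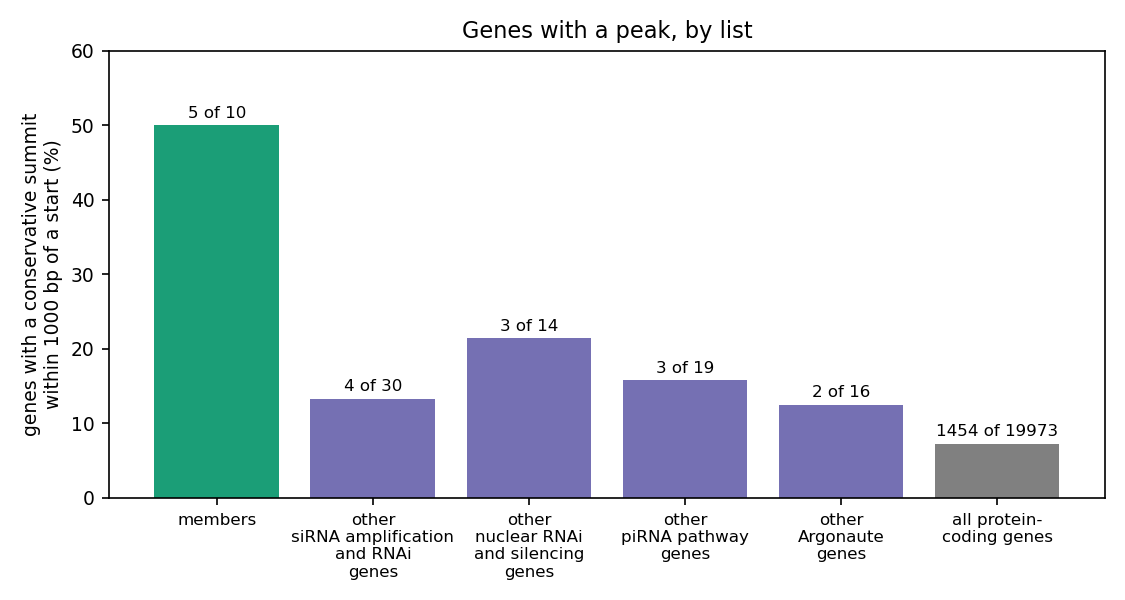
Percentage of genes with a conservative summit within 1000 bp of a start, for the 10 members (green), 4 lists of other small RNA pathway genes (violet) and all protein-coding genes (grey), with counts above the bars. The bars run from 50% for the members, which were chosen with earlier results of these data known, to 7.28% for all genes.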

How the data were processed

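ChIP-seq peak lists on the ce11 assembly were used as deposited by the authors. Which aligner and peak caller they ran is not given in the sources used here. The text lists deposited with the samples name both replicates' alignments among the inputs of the joint lists. Per the labels, chromatin was sonicated to fragments of 200 to 800 bp. The signal is the authors' deposited enrichment value per peak, the score their deposited scaled IDR score (at least 830 when thresholded, a global IDR of 0.01), and the ranked lists hold the authors' −log10 global IDR. The replicate columns of the ranked lists, 8 per list, were not used: a joint peak was matched to the replicate peak with an overlap of at least 1 bp and the nearest summit. Summits are column 2 plus column 10, and peaks on the mitochondrial genome were left out.

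Starts are from Ensembl release 115 on WBcel235, whose coordinates are those of ce11, and no peak ran past a chromosome end. Python 3.11.15, numpy 2.4.6 and matplotlib 3.10.9 were used. No statistical test was run: counts stand beside the same count over all protein-coding genes. Depth is unknown, so no interval for it is given. The assignment was tested on simulated summits, planted within and beyond 1000 bp of genes with a single annotated start. For 400 of 400, the distance was recovered and the summit was assigned only when it lay within 1000 bp. The members and gene lists were chosen with earlier results of these data known. The repeat, inverted repeat, shared-run and 6-mer descriptions were added after the data were seen. Named genes are the members, genes whose starts share their peaks, ceh-100 and the pathway genes with a conservative peak.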

Additional observations from a re-analysis of the deposited data

How the results depend on the processing

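The number of members with a peak was 5 and moved by over 1.5 times under 3 settings, to 3 within 200 bp, to 3 with the nearest start only and to 3 without peaks holding a repeated 31-mer, the last chosen after the data were seen. Without replicate 1 or replicate 2 it was 5. The number of other pathway genes with a peak was 12, and 5 within 200 bp, 43 in the joint ranked list without a threshold and 7 with a thresholded summit in both replicates. It ranged from 8 to 11 when either replicate was left out. The median signal of the members' strongest peaks was 1237. With the nearest start only it was 464, the value of the nearer nrde-2 peak. Of these pathway counts, the main one, the 200 bp window and the single replicates were planned, and the others were chosen after the data were seen. The median with the nearest start only was also chosen after the data were seen. The number of members whose peak another gene shares stayed at 4 with the starts of all genes, and that of members with TAATTA at 0 in windows reaching 100 bp to either side. By percentile of signal, mut-2 had 41.7 in the conservative set, 47.6 in the other thresholded set and 24.1 to 25.5 in single replicates, and the weaker tofu-1 peak had 46.1 but matched a replicate peak at 95.5 to 95.6, because that match is the stronger peak. No paired analysis was possible because the series holds a single group. Unknown depth, and the unknown handling of reads from repeated sequence, limit the values at nrde-2 and tofu-1.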

Other observations

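The tagged gene, ceh-100, had a conservative peak 798 bp upstream of its own start by the same rule, with a signal of 109 at rank 1193, below those of all 5 members with a peak. Of the 12 other small RNA pathway genes with a peak, 9 lie on chromosome I, namely rde-2, rde-10, ego-1, ekl-1, hrde-4, lin-61, pid-3, pid-4 and alg-5. That chromosome holds 27 of the 79 such genes, of which 33.3% had a peak, against 13.1% of all 2878 protein-coding genes there. It also holds 23.1% of the nuclear conservative peaks and 14.4% of the protein-coding genes. Among the members, 2 are on chromosome I, and of these mut-2 had a peak and mut-16 did not. These shares are descriptions, since the lists were written with earlier results known.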
